A study of Homo sapiens with 12 samples.

Results

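K562 is an established human erythroleukaemia line. The series holds 12 RNA-seq libraries of it: HRG1 either intact (WT) or knocked out (HRG1-KO), with or without sodium butyrate, in 4 groups of 3 libraries whose titles carry the replicate numbers 1, 2 and 3. Per the labels' protocols, treated cells received 0.75 mM sodium butyrate 24 h after plating and again 48 h later and were collected 6 h after the second dose, and untreated cells received none. All groups were grown in RPMI with 10% serum, and the series design places them at day 8 of differentiation, which the treatment times given do not add up to. The labels state neither how the knockout was made nor how many clones it comprises. The subject here is the set of 4 libraries numbered 1, which hold 1 library from each group (untreated WT, untreated HRG1-KO, treated WT and treated HRG1-KO), compared with the 8 libraries numbered 2 and 3. They were chosen by the number in the title alone, and no measured value entered the choice. What a number stands for, such as a culture, a day or a sequencing run, is not given in the sources used here, so p-values measure the spread between these samples, which may be technical.

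K562 cells make embryonic and fetal globins at a low level, and butyrate, an inhibitor of histone deacetylases, is a classic agent for raising globin expression in them. Growing cells spend much of their transcription on ribosomes: RNA polymerase I makes the precursor of the 18S, 5.8S and 28S ribosomal RNAs in the nucleolus, where a large set of assembly factors cuts, modifies and packs it. Cells that slow their growth lower these factors together with genes of DNA synthesis, whereas histone deacetylase inhibitors raise many genes that are otherwise silent in blood cells.

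SLC48A1, the gene of the heme transporter HRG1, stood at 58.9 to 83.8 CPM (the usual count rate per library, scaled by the trimmed mean of M-values, TMM) in the 6 WT libraries and at 2.94 to 10.1 CPM in the 6 HRG1-KO libraries, with number 1 on the labelled side in each group. The libraries numbered 1 held 19963594 to 22969599 counts and those numbered 2 and 3 held 20785901 to 30348538, and the difference was not past the threshold (two-sided exact permutation test within groups, p = 0.0741, n = 4 against 8). The 10 most abundant genes took 9.50 to 16.1% of the counts in number 1 and 7.67 to 10.3% in numbers 2 and 3, a difference of 3.17 percentage points (p = 0.0123 in the same exact test, the smallest that its 81 arrangements can give). A single ribosomal RNA gene, RNA28SN5, took 2.30 to 5.63% of the counts in number 1 and 0.673 to 2.86% in numbers 2 and 3. The Wilson 95% interval ran from 5.62 to 5.64% at the highest share, and it covers counting error only. The erythroid label was matched by the fetal globin HBG2, at 1025 to 19480 CPM, whereas the summed myeloid markers (19 genes) took 0.00593 to 0.0273% of the counts in number 1 and 0.0114 to 0.0403% in numbers 2 and 3, and their part in the differences below was not tested.

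Number 1 differed from numbers 2 and 3 across much of the transcriptome. In a quasi-likelihood fit (edgeR) with the 4 groups as covariate, 3903 of 15805 genes (24.7%) passed an adjusted p of 0.05, of which 1731 (11%) were higher in number 1 and 2172 (13.7%) were lower. When libraries were scaled by their totals alone, the median log2 difference of all genes moved from -0.06 to -0.24 and the split became 848 higher and 3315 lower, and directions below are relative to the bulk of genes. In 3620 genes (22.9%) number 1 lay outside the range of numbers 2 and 3 on the same side in all 4 groups, 1700 of them above it (10.8%) and 1920 below (12.1%). Taken pair by pair, number 1 differed from number 2 in 1845 genes (11.7%) and from number 3 in 3528 genes (22.3%), whereas numbers 2 and 3 differed from each other in 1 gene (0.00633%) by the same test, with 968 genes at an unadjusted p under 0.05 and 48 genes by DESeq2.

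Most of the calls rested on the treated cells, but counts of calls do not test whether the difference itself was larger there. That test, given below, called 153 genes (0.968%). Within single groups, where 1 library stands against 2 and is assumed to vary like the rest, number 1 differed in 3018 genes (19.1%) in treated WT and in 822 genes (5.2%) in treated HRG1-KO. The same test called 1 gene (0.00633%) in untreated HRG1-KO and 0 genes in untreated WT, with 2121 and 2144 genes at an unadjusted p under 0.05 and with 328 and 191 genes by DESeq2. Pooled over genotypes, number 1 differed in 211 untreated genes (1.34%), 86 higher (0.544%) and 125 lower (0.791%), and in 4315 treated genes (27.3%), 1900 higher (12%) and 2415 lower (15.3%). Without both treated libraries numbered 1 the overall count was 198, without number 3 it was 581 and without number 2 it was 1962. Leaving out the treated WT library of number 1 gave 1601 calls, and leaving out that of treated HRG1-KO gave 2077.

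Ribosome production was the program in which the largest share of members was higher in number 1. The gene lists here and below were chosen with earlier results of these data known, so their shares are a description. Of 30 tested assembly factors and RNA polymerase I subunits, 24 were higher and 0 lower, against 11% and 13.7% of all genes, and the median log2 difference was 0.61, against -0.06 for all genes. The median was 0.60 in untreated WT, 0.49 in untreated HRG1-KO, 0.99 in treated WT and 0.45 in treated HRG1-KO. Scaling by library totals left 13 members higher. Without the 2 treated libraries numbered 1, 2 members passed and the median was 0.54.

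UTP20, a scaffold of the small-subunit processome, stood in the order untreated WT, untreated HRG1-KO, treated WT and treated HRG1-KO at 52.7, 102, 23.6 and 59.6 CPM in number 1, against 20.1 and 32.01, 64.6 and 43.5, 8.41 and 6.197, and 29.1 and 14.9 CPM in numbers 2 and 3 of the same groups. RRP9, a protein of the U3 snoRNA particle, read in that order 68.2, 141, 62.3 and 98.7 CPM in number 1, against 19.9 and 33.6, 54.1 and 70.6, 21.9 and 14.97, and 68.9 and 55.01 CPM in numbers 2 and 3. In both genes each number 1 library was above both others of its group, and the log2 differences were 1.27 ± 0.21 (adjusted p = 0.00233) and 1.25 ± 0.19 (adjusted p = 0.00152), where the error is the standard error of the fit on 4 against 8 libraries. Nucleolin (NCL), the abundant nucleolar protein that binds precursor RNA, gave 1.03 ± 0.19 (adjusted p = 0.00355) and NOP16 gave 1.12 ± 0.21 (adjusted p = 0.00374). The upstream binding factor UBTF, which loads RNA polymerase I onto its promoter, rose by 1.14 ± 0.21, and POLR1A, the largest subunit of that polymerase, rose by 0.83 ± 0.23. The core box C/D proteins NOP56 and NOP58 rose by 0.98 and 0.61, and dyskerin (DKC1), the pseudouridine synthase of box H/ACA particles, by 0.89. Of the 6 members that did not pass, fibrillarin (FBL) had a log2 difference of 0.28 ± 0.13 (adjusted p = 0.132). Cytosolic ribosomal proteins, the other part of the ribosome, had 1 of 62 members higher, 0 lower and a median of 0.08, with medians of -0.10 without number 2 and 0.28 without number 3.

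The RNA that these factors process moved in the same direction. RNA28SN5 stood at 50670, 36640, 67070 and 22880 CPM in number 1, against 28680 and 8982, 11390 and 7093, 13870 and 7840, and 11850 and 6346 CPM in numbers 2 and 3, and the log2 difference was 1.87 ± 0.32 (adjusted p = 0.00266). The precursor genes RNA45SN2 and RNA45SN3 differed by 2.48 and 2.49, but they are near-identical copies whose reads cannot be assigned with certainty. RN7SK, the small nuclear RNA that holds the elongation factor P-TEFb inactive, rose by 1.56 ± 0.25 (adjusted p = 0.00223) and the RNase P RNA RPPH1 by 1.39 ± 0.33 (adjusted p = 0.0113). Together 6 of 8 tested genes of this list were higher and 0 lower, with a median of 1.53, the highest of the 34 lists with tested members. Numbers 2 and 3 also differed in level in this list, with a median log2 difference of 0.75 for number 2 over number 3. Small nucleolar RNAs, a class taken after their values were seen, had 16 higher of 123 (13%), near the 11% of all genes. The lower share was 0.813% (1 gene), against 13.7% of all genes, and their median for number 1 was 0.75. Their group medians were 1.00 and 0.77 in untreated WT and HRG1-KO, and 0.49 and 0.09 in treated WT and HRG1-KO. How the libraries were enriched or depleted for these RNAs is not given in the sources used here, and the part of that step in the difference was not tested.

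Promoters of the assembly factors are shown because several share the letters CACGTG, the E-box that MYC and related factors bind. In the RefSeq promoter table (GRCh38.p14, 250 bases before to 50 after the start), 24 of the 30 members were found, and 11 of the 24 (45.8%) held CACGTG, which reads the same on both strands, against 7.26% of 35116 promoters. Of the 20 called members with a promoter, 10 held it. This motif was chosen after the values were seen, and a match is a description of the letters only. Promoters of further lists were searched for other letters, and windows are shown for ribosome biogenesis, DNA replication and heat shock only. Letters sought in erythroid lists were in 46.7% of membrane, 27.3% of heme synthesis and 7.14% of regulator promoters, against 10.3% of all. In cholesterol synthesis the share was 5.56% against 1.13%, with 0 of 5 called members. Letters sought in ATF4 targets were in 13.3% of their promoters and in 4 of 16 tRNA synthetase promoters, against 3.62% of all. In NRF2 and BACH1 targets the share was 33.3% against 13.3%. A share above that of all promoters was thus not limited to lists with many members higher in number 1. The share of all promoters is not limited to tested genes. The 100 bases before the start follow for UTP20 (chr12:101280005-101280104, plus strand), UTP4 (chr16:69132549-69132648, plus strand) and NAT10 (chr11:34105529-34105628, plus strand), with CACGTG in capitals.
UTP20: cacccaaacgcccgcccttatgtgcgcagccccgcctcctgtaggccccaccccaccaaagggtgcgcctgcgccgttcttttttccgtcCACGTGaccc
UTP4: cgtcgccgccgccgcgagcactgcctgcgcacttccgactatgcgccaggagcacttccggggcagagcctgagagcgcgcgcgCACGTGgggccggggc
NAT10: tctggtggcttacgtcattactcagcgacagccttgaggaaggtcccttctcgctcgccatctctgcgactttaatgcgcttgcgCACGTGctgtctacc
In all 3 the letters lie near the start. UTP4 differed by 0.61 ± 0.19 (adjusted p = 0.0328) and the RNA acetyltransferase NAT10 by 0.42 ± 0.13 (adjusted p = 0.0346), and with single libraries left out these calls held in 5 of 12 and 4 of 12 fits.

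**Figure D1:**
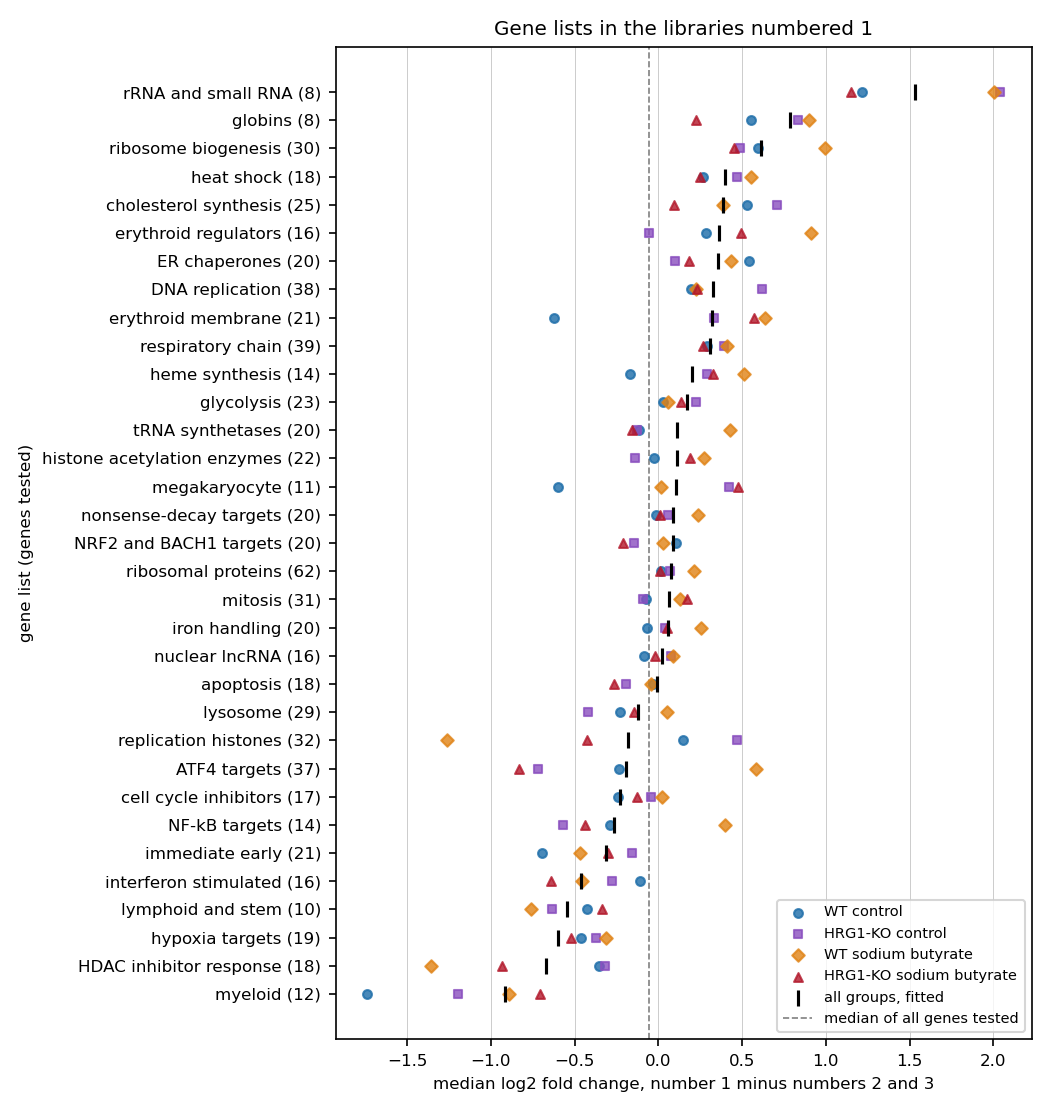
Median log2 difference of number 1 from numbers 2 and 3 (horizontal axis) for each gene list with at least 8 tested genes (vertical axis, number of genes in brackets). Coloured points are the 4 groups fitted separately, black bars the fit over all groups and the dashed line the median of all genes at -0.06; ribosome biogenesis lies between 0.45 and 0.99 in the 4 groups and the myeloid list between -1.74 and -0.71.

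Many genes of mitochondrial energy supply and protein turnover were higher in number 1 by small amounts. Of 39 nuclear-encoded respiratory chain subunits, 15 were higher and 0 lower, with a median of 0.31 and medians of 0.27 to 0.41 in the 4 groups. Number 1 was outside the range of the others in all 4 groups for 20 of them. NDUFS3, a core subunit of complex I, read 139, 132, 108 and 89.4 CPM in number 1, against 97.4 and 94.7, 81.3 and 99.3, 55.6 and 54.2, and 49.7 and 61.2 CPM in numbers 2 and 3, a log2 difference of 0.69 ± 0.12 (adjusted p = 0.00259). Each number 1 library was the highest of its group. SDHB, the iron-sulfur subunit of complex II, rose by 0.54 ± 0.11, and ATP5MC3, a subunit of the c-ring of ATP synthase, by 0.57 ± 0.11. When libraries were scaled by their totals alone, 4 members were higher, and without both treated libraries numbered 1 a single member was. Mitochondrial ribosomal proteins, taken after their values were seen, showed 38 of 77 members higher and 0 lower, with a median of 0.39.

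Of 37 proteasome subunits, a family also taken after its values were seen, 25 were higher and 2 lower. PSMB2 and PSMB5, subunits of the constitutive catalytic core, rose by 0.79 ± 0.11 and 0.54 ± 0.10. The 2 lower members were PSMB8 and PSMB9, interferon-inducible catalytic subunits of the immunoproteasome, with log2 differences of -3.53 ± 0.98 (adjusted p = 0.0241) and -2.33 ± 0.68 (adjusted p = 0.025), while the other inducible subunit, PSMB10, gave 0.48 ± 0.19 (adjusted p = 0.0785). TAP1, which carries the peptides made by the proteasome to class I molecules, was among the 12 largest falls by the naming rule given below. That rule required number 1 to lie below both others in all 4 groups. TAP1 stood at 4.06, 6.85, 9.69 and 9.28 CPM in number 1, against 23.7 and 23.1, 10.3 and 34, 71.1 and 62.3, and 81.9 and 87.1 CPM in numbers 2 and 3. Its log2 difference was -2.53 ± 0.32 (adjusted p = 0.00117). HLA-E, a class I molecule that engages receptors of natural killer cells, fell by 1.28 (adjusted p = 0.00349), and 3 of 11 tested HLA genes fell while 0 rose, against 13.7% and 11% of all genes; this family was taken after its values were seen. In the list of 16 interferon-stimulated genes 1 fell and 0 rose, a share below that of all genes.

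Part of the DNA replication genes were higher in number 1. Of 38 members, 14 were higher and 0 lower, with a median of 0.32 (0.19 in untreated WT, 0.62 in untreated HRG1-KO, and 0.23 in both treated groups). PCNA, the sliding clamp of DNA polymerases, read 157, 243, 148 and 204 CPM in number 1, against 81.5 and 93.3, 132 and 108, 99.9 and 76.3, and 147 and 122 CPM in numbers 2 and 3, and its log2 difference was 0.80 ± 0.12 (adjusted p = 0.00173). UHRF1, which links replication to maintenance of DNA methylation, gave 0.93 ± 0.19 (adjusted p = 0.00609) and RRM2, the inducible subunit of ribonucleotide reductase, gave 0.88 ± 0.18 (adjusted p = 0.00624). The replicative helicase subunits MCM2 and MCM7 rose by 0.77 and 0.69, and RFC3 of the clamp loader rose by 0.73. PCNA was above both others in all 4 groups. Numbers 2 and 3 differed in the same list by a median of 0.22 with number 2 higher. Without number 3 the calls dropped to 1, without both treated libraries numbered 1 also to 1, and without number 2 they were 13. Of 31 mitosis genes, 4 were higher and 2 lower, below the 24.7% of all genes called, with a median of 0.06.

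The promoters of this list are given because they hold letters bound by E2F factors. TTTGGCGC or TTTCCCGC, on either strand, was in 14 of 33 promoters found (42.4%), against 2.27% of all promoters, and in 8 of 13 called members. In the windows of 100 bases before the start for UHRF1 (chr19:4909401-4909500, plus strand) and RFC3 (chr13:33818049-33818148, plus strand), the capitals mark these letters, which read as their reverse complement.
UHRF1: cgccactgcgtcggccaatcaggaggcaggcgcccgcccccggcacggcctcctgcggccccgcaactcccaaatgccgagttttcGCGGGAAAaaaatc
RFC3: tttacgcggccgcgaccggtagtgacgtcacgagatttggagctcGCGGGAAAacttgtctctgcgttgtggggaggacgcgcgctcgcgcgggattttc
Members that did not pass held them as well, including E2F1, whose log2 difference was 0.10 ± 0.16 (adjusted p = 0.686).

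Part of the chaperones were higher in number 1. Among 18 heat shock genes, 7 were higher and 1 lower (median 0.40), and among 20 chaperones of the endoplasmic reticulum 7 were higher and 0 lower (median 0.36). HSPE1, the lid of the mitochondrial chaperonin, read 39.8, 57.4, 20.3 and 45.9 CPM in number 1, against 13.4 and 13.7, 30.8 and 30.03, 11.99 and 9.53, and 23.1 and 22.9 CPM in numbers 2 and 3, a log2 difference of 1.10 ± 0.14 (adjusted p = 0.00117). DNAJA1, a co-chaperone of HSP70, rose by 1.04 ± 0.16, and AHSA1, the activator of HSP90 ATPase, by 0.78 ± 0.14. In these 3 genes number 1 was the highest library of each group. In the endoplasmic reticulum, calreticulin (CALR) rose by 0.76 ± 0.19 (adjusted p = 0.0136), BiP (HSPA5) by 0.74 ± 0.22 (adjusted p = 0.02603) and calnexin (CANX) by 0.66 ± 0.15 (adjusted p = 0.00825). The main stress-inducible genes HSPA1A and HSPA1B, near-identical copies, gave 0.35 ± 0.43 (adjusted p = 0.585) and 0.63 ± 0.41 (adjusted p = 0.273). HSPA6, an HSP70 induced by strong stress, was the lower member, at 4.82, 0.589, 1.81 and 0.689 CPM in number 1, against 17.1 and 7.498, 1.85 and 3.11, 11.6 and 5.02, and 6.61 and 2.55 CPM in numbers 2 and 3, a log2 difference of -2.02 ± 0.42 (adjusted p = 0.00587). Without both treated libraries numbered 1, 2 members of each list passed: HSPE1 and AHSA1, which were called with all libraries too, and DNAJB11 and SDF2L1, of which SDF2L1 was not.

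Heat shock elements were searched on both strands as GAA, TTC and GAA in turn with 2 free bases between each, and 6 of 17 promoters found (35.3%) held it, against 0.49% of all. Among them are risen and fallen members, shown side by side for CHORDC1 (chr11:90223050-90223149, minus strand), HSP90AA1 (chr14:102087045-102087144, minus strand) and HSPA6 (chr1:161524440-161524539, plus strand), with the element in capitals; in CHORDC1 overlapping matches run together.
CHORDC1: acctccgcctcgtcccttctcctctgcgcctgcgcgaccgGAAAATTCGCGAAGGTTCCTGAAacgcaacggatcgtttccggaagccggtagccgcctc
HSP90AA1: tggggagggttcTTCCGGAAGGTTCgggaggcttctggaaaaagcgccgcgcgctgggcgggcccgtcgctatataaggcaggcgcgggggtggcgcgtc
HSPA6: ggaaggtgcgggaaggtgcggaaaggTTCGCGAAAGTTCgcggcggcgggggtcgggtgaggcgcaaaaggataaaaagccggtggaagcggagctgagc
CHORDC1, a co-chaperone of HSP90, differed by 0.60 ± 0.18 (adjusted p = 0.0317) and HSP90AA1, the inducible HSP90, by 0.66 ± 0.22 (adjusted p = 0.0471), calls that held in 4 of 12 and 2 of 12 fits with 1 library left out, while HSPA6 fell and holds the same letters.

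Some cholesterol synthesis genes were higher in number 1, in untreated cells as well. Of 25 members, 9 were higher and 0 lower, with a median of 0.38. The group medians were 0.53 and 0.71 in untreated WT and HRG1-KO and 0.39 and 0.10 in treated WT and HRG1-KO, and the list had a median of 0.58 with 2 calls without both treated libraries numbered 1. SQLE, squalene epoxidase, read 339, 481, 820.1 and 1092 CPM in number 1, against 137 and 288, 245 and 229, 405 and 361, and 467 and 264 CPM in numbers 2 and 3, a log2 difference of 1.11 ± 0.20 (adjusted p = 0.00371). ACAT2, which makes the first intermediate of the pathway, gave 0.96 ± 0.14 (adjusted p = 0.00143). STARD4, a cholesterol carrier, gave 0.04 ± 0.21 (adjusted p = 0.9103) over all groups, but its difference depended on treatment, with a log2 difference between treated and untreated cells of -1.20 (adjusted p = 0.0447).

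Some erythroid genes were called higher in number 1, and the calls depended on the treated libraries. Of 8 tested globin genes, 6 were higher and 0 lower (median 0.79), of 14 heme synthesis genes 5 were higher (median 0.20), of 21 red cell membrane genes 4 were higher and 1 lower (median 0.32), and of 16 erythroid regulators 5 were higher (median 0.36). In treated cells alone the higher calls numbered 2, 6, 6 and 8 in these lists, and in untreated cells 0 in each. Without both treated libraries numbered 1, 0 members passed in any of the 4, and the membrane list then had a median of -0.05. In untreated WT the heme synthesis and membrane lists had medians of -0.17 and -0.62. The globin median was 0.77 in untreated cells, where all 8 genes were above 0, and 0.83 in treated cells. By group the globin median was 0.56 and 0.83 in untreated WT and HRG1-KO, and 0.90 and 0.22 in treated WT and HRG1-KO. The heme synthesis, membrane and regulator medians were 0.14, -0.04 and 0.12 in untreated cells, and 0.37, 0.52 and 0.79 in treated cells. In bulk RNA, fewer cells of a type and less RNA per cell cannot be told apart.

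HBZ, the embryonic zeta-globin, read 483, 716, 7553 and 1108 CPM in number 1, against 201 and 246, 425 and 223, 1256 and 342, and 582 and 498 CPM in numbers 2 and 3. Each number 1 library was the highest of its group, with the widest gap in treated WT, and the log2 difference was 1.71 ± 0.38 (adjusted p = 0.00846). HBE1, the embryonic epsilon-globin, stood at 5649, 26.3, 23160 and 419 CPM in number 1, against 2273 and 5121, 17.9 and 7.36, 13910 and 10300, and 222 and 92.01 CPM in numbers 2 and 3, and its log2 difference was 1.02 ± 0.29 (adjusted p = 0.0232). The fetal gamma-globins HBG1 and HBG2 differed by 0.59 and 0.61 and the alpha-globins HBA1 and HBA2 by 0.96 and 1.00, values that are uncertain within each near-identical pair. The gamma-globin calls held in 2 of 12 fits with 1 library left out. UROD, which acts in the middle of heme synthesis, rose by 0.70 ± 0.14. ALAS2, the erythroid first enzyme of the pathway, gave -0.04 ± 0.25 (adjusted p = 0.921). KLF1, the factor that activates adult globin and many red cell genes, read 204, 93.4, 329 and 179.7 CPM in number 1, against 106 and 184, 49.7 and 91.8, 77.5 and 67.4, and 77.5 and 51.3 CPM in numbers 2 and 3, and its log2 difference was 1.20 ± 0.28 (adjusted p = 0.00959). LMO2, the bridging protein of the GATA1 and TAL1 complex, gave 1.17 ± 0.30 (adjusted p = 0.0147) and the erythropoietin receptor EPOR gave 0.97 ± 0.26 (adjusted p = 0.0192). The transferrin receptor TFRC gave 0.88 ± 0.21 (adjusted p = 0.0111). BCAM, the Lutheran blood group glycoprotein, was the fallen member of the membrane list, with -0.92 ± 0.20 (adjusted p = 0.00725).

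Of 12 tested myeloid genes, 0 were higher and 4 lower, against 11% and 13.7% of all genes, with a median of -0.91, the lowest of the lists drawn in the plot of list medians. AZU1, a protease homologue of neutrophil granules, stood at 6.72, 2.46, 3.52 and 9.37 CPM in number 1, against 30.3 and 17.6, 2.95 and 17.3, 32.4 and 27.5, and 18.5 and 48.8 CPM in numbers 2 and 3, a log2 difference of -2.17 ± 0.44 (adjusted p = 0.005695). PRTN3, the neighbouring granule protease, fell by 1.99 (adjusted p = 0.0359), the integrin ITGAM by 1.57 (adjusted p = 0.00859) and CD33, a sialic acid receptor, by 0.77 (adjusted p = 0.00942). MPO, ELANE, CTSG, S100A8 and S100A9 were too low in all libraries to be tested. Without both treated libraries numbered 1, 1 myeloid member was lower and the median was -0.81, and without number 3 there were 1 higher and 1 lower. Of 10 tested lymphoid and stem cell genes 1 was lower and 0 higher, below the share of all genes, and of 11 megakaryocyte genes 2 were higher and 1 lower, near it, among them the platelet collagen receptor GP6 with 1.33 ± 0.19 (adjusted p = 0.00145).

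Of 20 listed targets of nonsense-mediated decay, 6 were higher and 0 lower, and 5 of the 6 encode splicing factors, several of which are known to regulate themselves through this pathway. SRSF2, which binds exonic enhancers, read 415, 486, 456 and 431 CPM in number 1, against 152 and 256, 225 and 243, 207 and 185, and 263 and 205 CPM in numbers 2 and 3, a log2 difference of 1.04 ± 0.14 (adjusted p = 0.00128). Its number 1 libraries were above all others of their groups. SRSF7 rose by 0.76 and TRA2B by 0.74. The other called members were SRSF3, TRA2A and SMG5, a factor of the decay machinery itself. The median of the list was 0.09, and without both treated libraries numbered 1 a single member passed.

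Some hypoxia targets were lower in number 1. Of 19 tested, 0 were higher and 6 lower, with a median of -0.60 (group medians from -0.52 to -0.31). P4HA2, a collagen prolyl hydroxylase, read 13.8, 8.08, 11.1 and 23.4 CPM in number 1, against 25.8 and 35.8, 15.4 and 32.4, 50.7 and 63.8, and 43.97 and 54.1 CPM in numbers 2 and 3, a log2 difference of -1.51 ± 0.25 (adjusted p = 0.0025). VEGFA, the vascular growth factor, gave -0.98 ± 0.26 (adjusted p = 0.0179) and PDK1, which closes the entry of pyruvate into mitochondria, gave -0.67 ± 0.17 (adjusted p = 0.0159). The adaptor PPFIA4 fell by 3.03 (adjusted p = 0.00732). P4HA2 was below both others in all 4 groups. Numbers 2 and 3 also stood apart in this list, with a median of -0.40 for number 2 against number 3, and without number 3 a single member passed and the median was -0.18. Glycolysis, which shares members with the hypoxia response, had 5 genes higher and 5 lower of 23: hexokinase HK2 rose by 1.18 and enolase ENO1 by 0.72, while phosphofructokinase PFKM fell by 1.00 and PFKFB3 by 0.79.

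Some genes known to respond to histone deacetylase inhibitors were lower in number 1. Of 18 tested, 0 were higher and 5 lower, with a median of -0.67, and in treated cells alone 9 were lower and 0 higher. Without number 3 there were 2 lower, and without both treated libraries numbered 1 there were 0, with a median of -0.45. The medians were -0.35 and -0.32 in untreated WT and HRG1-KO, and -1.36 and -0.93 in treated WT and HRG1-KO. CDKN1A, the inhibitor of cyclin-dependent kinases known as p21, stood at 14.3, 1.45, 25.97 and 6.11 CPM in number 1, against 31.5 and 21.9, 2.52 and 3.38, 63.5 and 50.7, and 37.1 and 24.9 CPM in numbers 2 and 3, a log2 difference of -1.33 ± 0.25 (adjusted p = 0.00376). ENO2, the neuronal enolase, stood at 31.6, 28.4, 54.3 and 78.04 CPM in number 1, against 42.1 and 79.8, 42.8 and 70.8, 128 and 174, and 165 and 152 CPM in numbers 2 and 3, a log2 difference of -1.11 ± 0.20 (adjusted p = 0.00322). Both genes were lowest in number 1 in each group, untreated cells included. In the apoptosis list 1 of 18 was higher and 1 lower, below the 24.7% of all genes called. The lower member, the death receptor TNFRSF10B, fell by 1.92 (adjusted p = 0.00417). Of 17 cell cycle inhibitors, a list that shares CDKN1A, 4 were higher and 3 lower. BTG2, an antiproliferative target of p53, fell by 1.29 (adjusted p = 0.00322), while CDKN1B, the inhibitor p27, was higher, with 0.74 ± 0.23 (adjusted p = 0.0307), a call that held in 5 of 12 fits with 1 library left out.

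Of 22 enzymes that add or remove histone acetyl groups, 2 were higher and 4 lower, a share near the 24.7% of all genes called, and the members are given as single genes. The 4 lower were all deacetylases: HDAC4, HDAC5, HDAC6 and HDAC11. HDAC6, the cytoplasmic tubulin deacetylase, stood at 121, 62.1, 76.1 and 48.9 CPM in number 1, against 181 and 162, 89.1 and 111, 199 and 204, and 110.1 and 121 CPM in numbers 2 and 3, a log2 difference of -0.94 ± 0.15 (adjusted p = 0.00236). HDAC5 gave -0.88 ± 0.16 (adjusted p = 0.00378), HDAC4 gave -0.61 ± 0.16 (adjusted p = 0.0173) and HDAC11 gave -1.22 ± 0.37 (adjusted p = 0.0301). The 2 higher were the acetyltransferases KAT5 and KAT6B, by 0.67 and 0.92. Without both treated libraries numbered 1, 0 of these passed, and 0 passed in untreated cells.

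Among lysosomal genes the direction was mixed, with 5 higher and 6 lower of 29. NPC1, the cholesterol exporter of the lysosome, gave -0.67 ± 0.14 (adjusted p = 0.00571) and LAMP2, a membrane glycoprotein, gave -0.67 ± 0.14 (adjusted p = 0.006301), while its relative LAMP1 gave 0.94 ± 0.21 (adjusted p = 0.00909) and the protective protein CTSA gave 0.83 ± 0.20 (adjusted p = 0.0105). Scaling by totals alone gave 4 higher and 13 lower. In the NF-kB list of 14, 1 was higher and 2 lower, a share near the 24.7% of all genes called, and the members are given as single genes. The subunit genes NFKB2 and RELB were lower, with -1.42 ± 0.23 (adjusted p = 0.00239) and -2.34 ± 0.63 (adjusted p = 0.0178). NFKB1, the precursor of p50, was higher, with 1.71 ± 0.34 (adjusted p = 0.00496). Of 20 tested targets of NRF2 and BACH1, 1 was higher and 2 lower, below the 24.7% of all genes called. NQO1, a quinone reductase, rose by 1.24 ± 0.12 (adjusted p = 0.000734), OSGIN1 fell by 2.24 (adjusted p = 0.00538) and the efflux pump ABCC1 fell by 0.59 (adjusted p = 0.0104). Of 37 ATF4 targets, 2 were lower and 0 higher, below the 13.7% of all genes called lower, led by ALDH1L2, the mitochondrial folate enzyme, with -1.78 ± 0.44 (adjusted p = 0.0135). The groups went opposite ways in this list, with medians of -0.23 and -0.72 in untreated WT and HRG1-KO, and 0.585 and -0.83 in treated WT and HRG1-KO. In the test of dependence on genotype its median was -0.83, with 1 of 37 members above 0 and 0 called. Of 20 aminoacyl-tRNA synthetases, 2 were higher and 0 lower, near the 11% of all genes called higher.

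The largest single rises, by a rule that took the 12 largest among genes outside the others' range in every group with at least 50 counts on the higher side, were led by MIR663A, SELPLG, ECM2 and ADI1. MIR663A may share reads with its host transcript and with near-identical copies, so its level is uncertain. SELPLG, the ligand of P-selectin on leukocytes, read 9.97, 11.3, 148 and 124 CPM in number 1, against 2.88 and 9.35, 2.95 and 5.75, 5.85 and 4.1, and 23.2 and 11.3 CPM in numbers 2 and 3, a log2 difference of 2.7 ± 0.56 (adjusted p = 0.00609). Its gap was widest in the treated groups. ADI1, a dioxygenase of the methionine salvage pathway, stood at 128, 199, 304 and 262 CPM in number 1, against 50.3 and 76.8, 55.9 and 56.9, 23.2 and 20.1, and 26.6 and 29.7 CPM in numbers 2 and 3, a log2 difference of 2.60 ± 0.33 (adjusted p = 0.00117). In numbers 2 and 3 ADI1 fell with butyrate, while in number 1 its treated libraries were the higher ones. LANCL2, a glutathione-binding protein, rose by 2.42 ± 0.36 and the neurofilament heavy chain NEFH by 2.45 ± 0.44. EPGN, a ligand of the epidermal growth factor receptor, rose by 1.94 ± 0.33. The neighbouring genes ECM2 and OGN, which encode matrix proteins, rose by 2.65 and 2.22 from low levels. RPS16P5 is a ribosomal protein pseudogene whose reads may come from other copies, and SUGT1P4-STRA6LP is a readthrough transcript, with differences of 2.18 and 1.90. The precursor genes RNA45SN2 and RNA45SN3 complete the 12.

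The 12 largest falls by the same rule were WDR31, HELZ2, IL10RA, RIMS3, AKNA, STON1, LOC105747689, TAP1, RAB3D, ARHGEF17, ADGRA2 and YPEL1. WDR31, a WD-repeat protein, read 0.758, 1.28, 1.61 and 1.98 CPM in number 1, against 13.9 and 9.04, 9.65 and 6.42, 10.9 and 19.01, and 8.13 and 13.3 CPM in numbers 2 and 3, a log2 difference of -2.99 ± 0.33 (adjusted p = 0.000878). RIMS3, a regulator of synaptic vesicle release, read 0.758, 7.17, 3.68 and 8.63 CPM in number 1, against 4.45 and 5.55, 24.8 and 24.2, 25.9 and 46.4, and 58.4 and 77.96 CPM in numbers 2 and 3, a log2 difference of -2.65 ± 0.27 (adjusted p = 0.000734). In both genes every number 1 library was below the others of its group, which the rule required. STON1, an endocytic adaptor, stood at 1.08, 1.71, 1.55 and 1.42 CPM in number 1, against 6.96 and 6.05, 3.04 and 9.86, 11.01 and 11.9, and 8.29 and 13.9 CPM in numbers 2 and 3, a log2 difference of -2.57 ± 0.36 (adjusted p = 0.00131), and its number 1 libraries lay between 1.08 and 1.71 CPM. HELZ2, a helicase that coactivates nuclear receptors, fell by 2.77 and the interleukin-10 receptor IL10RA by 2.69. AKNA, a microtubule organiser of centrosomes, read 15.3, 4.33, 9.901 and 0.276 CPM in number 1, against 173 and 26.9, 55.8 and 18.5, 17.97 and 26.2, and 5.68 and 12.2 CPM in numbers 2 and 3, so that number 2 of the untreated groups stood far above number 3. The remaining falls were 2.55 in LOC105747689, 2.51 in RAB3D, 2.45 in ARHGEF17, 2.45 in ADGRA2 and 2.44 in YPEL1. Of the 24 genes of both rules, WDR31, RIMS3, TAP1, ADI1 and ADGRA2 passed in each alternative in which they were tested, and the other 19 lost the call without both treated libraries numbered 1.

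**Figure D2:**
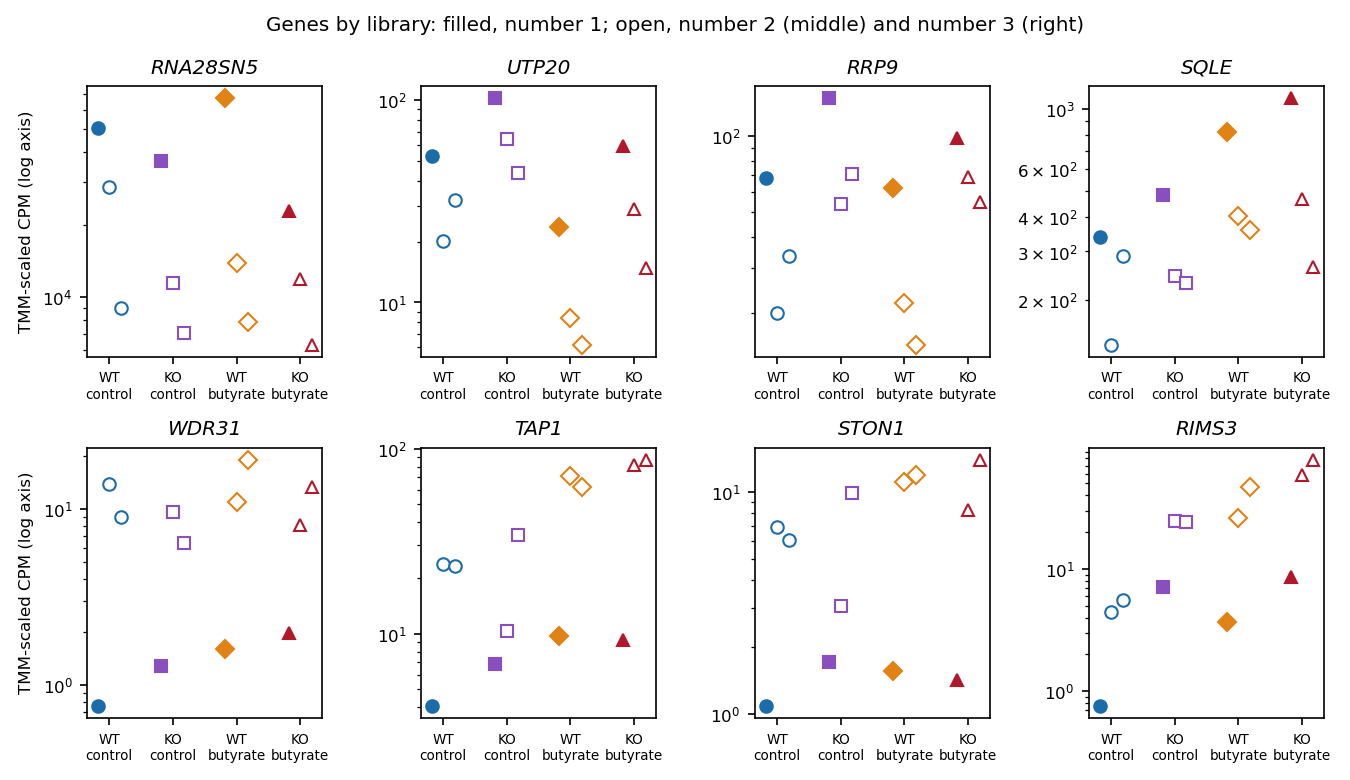
TMM-scaled CPM on a log axis for 8 genes, in the 4 groups along the horizontal axis; filled symbols are number 1, open symbols numbers 2 and 3. In RNA28SN5, UTP20, RRP9 and SQLE each filled symbol is the highest of its group, and in WDR31, TAP1, STON1 and RIMS3 it is the lowest. The naming rule required the latter for WDR31, TAP1, STON1 and RIMS3.

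The genes called also differed in transcript length and base content, properties the grouping did not use. Genes were ranked by their longest transcript and split into quintiles. In the shortest quintile (52 to 1912 bases), 14.1% were higher in number 1 and 7.61% lower. In the longest quintile (5639 to 109224 bases), 6.87% were higher and 18.8% lower. By GC content, 11.6% were higher and 9.2% lower in the lowest quintile, against 10.1% and 20.2% in the highest. The groups were not alike in this. Median log2 differences from lowest to highest GC quintile went from -0.10 to -0.04 in untreated WT and from 0 to -0.18 in untreated HRG1-KO. They went from -0.02 to -0.22 in treated WT and from 0.11 to -0.38 in treated HRG1-KO. In treated HRG1-KO the medians went from 0.004 to -0.07 from the shortest to the longest quintile. Lengths and GC content were matched for 14844 of the 15805 genes (93.9%) in the GENCODE transcripts. The part of length and base content in the calls was not tested.

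**Figure D3:**
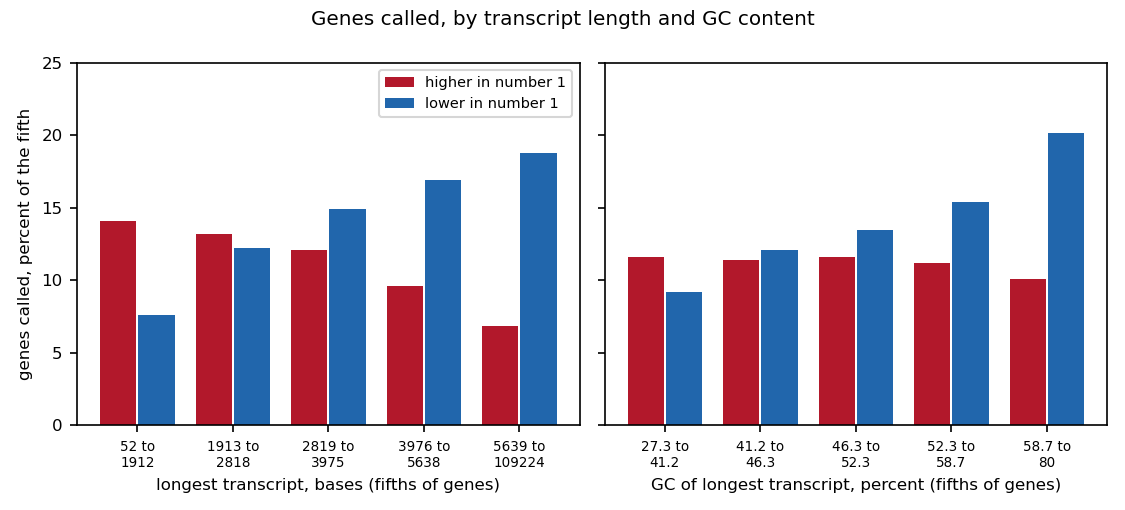
Percent of genes called higher (red) or lower (blue) in number 1, for quintiles of genes by the length in bases (left) and GC percent (right) of their longest transcript. The share of lower calls climbs from 7.61 to 18.8% with length and from 9.2 to 20.2% with GC, and the share of higher calls drops from 14.1 to 6.87% with length.

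Genes that responded to butyrate in numbers 2 and 3 had, by their medians, smaller ratios in number 1. With the libraries numbered 2 and 3 alone, butyrate changed 4673 of 15805 genes (29.6%), 2609 up (16.5%) and 2064 down (13.1%), as a mean over both genotypes. With all 12 libraries the same contrast called 2305 genes (14.6%). It called 4196 with the replicate number as a block, used since same-numbered libraries deviated together, least clearly in number 2. In the 2609 risen genes the median log2 ratio of treated over untreated was 0.32 in number 1 against 1.32 and 1.14 in numbers 2 and 3 of WT, and 0.65 against 1.62 and 1.26 in HRG1-KO. Number 1 did not enter the test that chose these genes, and 1591 of them had a ratio above 0 in its WT pair and 2025 in its HRG1-KO pair. In the 2064 fallen genes the medians were -0.22 against -0.73 and -0.64 in WT, and -0.33 against -0.70 and -0.64 in HRG1-KO. Since genes were selected on numbers 2 and 3, the choice favours ratios further from 0 there and fixes part of this gap. The comparison is given as a description. Across all 15805 genes, the ratios of number 1 correlated with those of numbers 2 and 3 at Pearson r of 0.341 and 0.271 in WT and 0.562 and 0.454 in HRG1-KO, and those of numbers 2 and 3 with each other at 0.669 and 0.736. These pairs share no library, but genes are not independent replicates, so the values are a description.

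**Figure D4:**
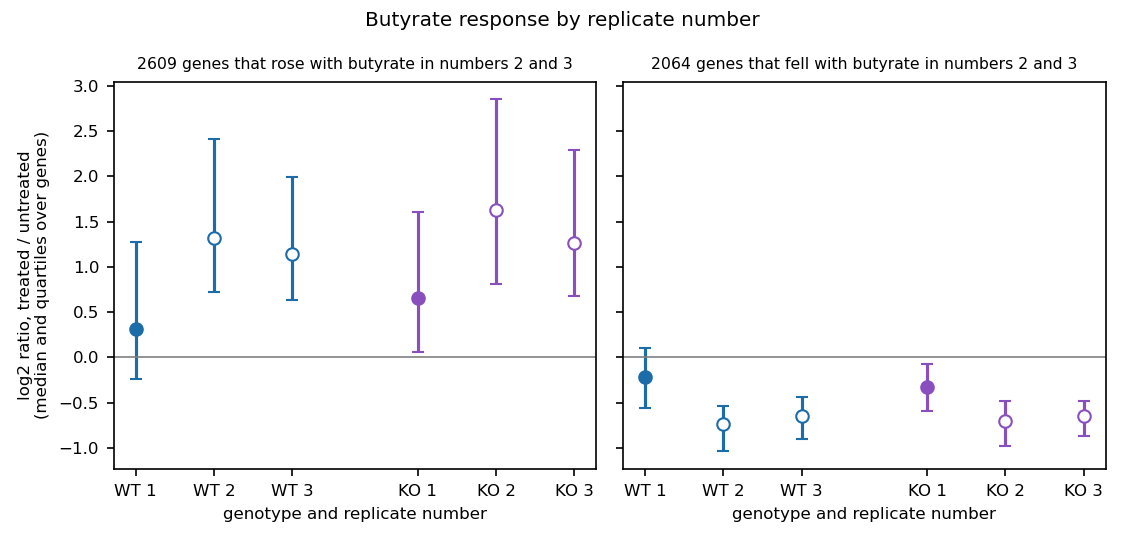
Median and quartiles over genes of the log2 ratio of treated over untreated cells (vertical axis) by genotype and replicate number (horizontal axis), for genes that rose (left) or fell (right) with butyrate in numbers 2 and 3. Number 1 (filled) has medians of 0.32 and 0.65 among rises and -0.22 and -0.33 among falls, nearer to 0 than either other number. The genes were selected on numbers 2 and 3, so the choice fixes part of this gap.

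Tested gene by gene over both genotypes, the difference between number 1 and the others depended on treatment in 153 genes (0.968%), 62 higher with treatment (0.392%) and 91 lower (0.576%), with 2737 genes at an unadjusted p under 0.05. Leaving out the untreated WT library of number 1 gave 0 calls and leaving out number 2 of treated HRG1-KO gave 338. In simulated counts this test found 49% of genes with a 4-fold change and 5% of those with a 2-fold change. Of the 91 lower genes, 68 had risen with butyrate in numbers 2 and 3 and 0 had fallen. Of the 62 higher genes, 47 had fallen with butyrate there and 2 had risen. Both tests use the libraries numbered 2 and 3, so the choice fixes part of this direction.

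UNC13A, a protein that primes synaptic vesicles, stood at 4.44, 28.7, 0.622 and 5.51 CPM in number 1, against 1.299 and 2.52, 12.5 and 5.78, 20.6 and 13.1, and 49.1 and 37.2 CPM in numbers 2 and 3. It rose with butyrate in numbers 2 and 3 of both genotypes, and in number 1 its treated libraries were below the untreated ones. The log2 difference of differences was -5.05 (adjusted p = 0.00911). ZDHHC11B, a palmitoyltransferase, read 3.14, 1.55, 0.881 and 0.689 CPM in number 1, against 1.16 and 0.975, 0.618 and 0.535, 18.4 and 13.9, and 4.82 and 7.61 CPM in numbers 2 and 3, with a difference of -5.17 (adjusted p = 0.00523). SLC17A7, the vesicular glutamate transporter, read 14.1, 1.28, 0.829 and 1.15 CPM in number 1, against 8.72 and 24.1, 2.38 and 7.29, 39.6 and 62.8, and 29.7 and 33.4 CPM in numbers 2 and 3, with -4.44 (adjusted p = 0.0361). RGMA, NXPH3 and ROPN1L likewise had ratios of treated over untreated above 0 in numbers 2 and 3 and below 0 in number 1 of both genotypes. Their number 1 ratios rest on few reads. RGMA had 25 untreated and 22 treated counts in WT and 2 and 0 in HRG1-KO, the latter below the limit of detection. NXPH3 had 8 and 2 in WT and 12 and 7 in HRG1-KO, and ROPN1L had 21 and 11, and 13 and 10. The differences were for RGMA, a guidance molecule, -4.98 (adjusted p = 0.0498), the neurexophilin NXPH3 -4.57 (adjusted p = 0.0421) and the sperm flagellar protein ROPN1L -4.51 (adjusted p = 0.0348). In treated cells number 1 was the lowest library of its group in all 6.

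On the other side MFSD2B, the transporter that exports sphingosine 1-phosphate from red cells, read 13.2, 14.4, 85.02 and 58.6 CPM in number 1, against 17.7 and 16.98, 13.7 and 10.5, 6.14 and 4.96, and 6.08 and 3.96 CPM in numbers 2 and 3. Untreated libraries lay between 10.5 and 17.7 CPM in all numbers, number 1 rose with treatment and numbers 2 and 3 fell, and the difference of differences was 3.81 (adjusted p = 0.00168). TSPAN32, a tetraspanin of blood cells, read 8.94, 27.1, 61.9 and 59.7 CPM in number 1, against 6.77 and 9.85, 10.99 and 25.4, 8.11 and 4.29, and 12.9 and 12.02 CPM in numbers 2 and 3, with 2.47 (adjusted p = 0.0477). SLC30A10, a manganese exporter, read 15.2, 29.9, 94.8 and 78.8 CPM in number 1, against 15.6 and 23.2, 24.6 and 13.9, 21.5 and 16.1, and 15.7 and 10.2 CPM in numbers 2 and 3, with 2.30 (adjusted p = 0.0365). C10orf71, a gene known from muscle, gave 2.55 (adjusted p = 0.0408), CLEC4M, a lectin receptor, gave 2.79 (adjusted p = 0.0408) and CLCA1, a secreted regulator of chloride channels, gave 2.90 (adjusted p = 0.0407). CLEC4M had 0, 3 and 4 counts in untreated WT and 23, 9 and 12 in treated WT, so its WT part rests on few reads. Its ratios of treated over untreated were above 0 in every number of both genotypes. CLCA1 was at 0 or 0.0636 CPM in every WT library, so its value rests on HRG1-KO alone, and it turned to -1.14 (adjusted p = 0.824) without number 1 of treated HRG1-KO.

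**Figure D5:**
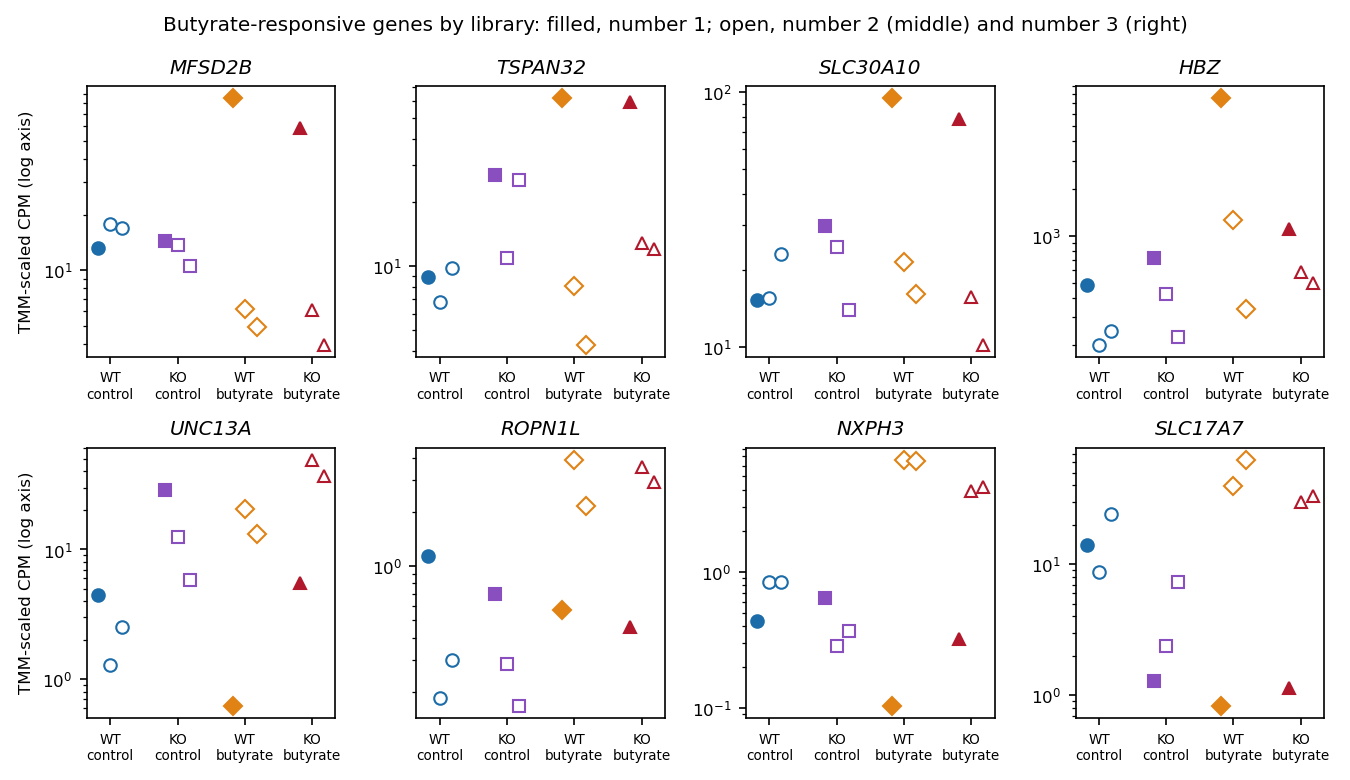
TMM-scaled CPM on a log axis for 8 genes in the 4 groups; filled symbols are number 1, open symbols numbers 2 and 3. In treated cells number 1 (filled) is the highest for MFSD2B, TSPAN32, SLC30A10 and HBZ and the lowest for UNC13A, ROPN1L, NXPH3 and SLC17A7.

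By list, the ratios of number 1 to the others went different ways. Replication-dependent histone genes, which package new DNA, rose with butyrate in 23 of 32 genes in numbers 2 and 3. Their median log2 ratio was 0.10 in number 1 against 1.73 and 1.69 in WT, and -0.33 against 0.12 and 0.82 in HRG1-KO, and in treated cells 11 of them were lower in number 1 and 0 higher. H2BC11, a histone H2B gene, had ratios of -0.55 in number 1 and 1.53 and 1.18 in numbers 2 and 3 of WT, and -0.88 against 0.42 and 1.11 in HRG1-KO, and its difference of differences was -1.76 (adjusted p = 0.0318). H2AC13, a histone H2A gene, gave -1.80 (adjusted p = 0.0447). The histone deacetylase inhibitor list, of which 13 of 18 rose in numbers 2 and 3, had medians of 1.18 against 1.66 and 1.53 in WT and 1.72 against 2.22 and 1.78 in HRG1-KO. ATF4 targets, of which 23 of 37 fell in numbers 2 and 3, had medians of -0.10 against -1.64 and -0.62 in WT and -1.37 against -2.29 and -0.65 in HRG1-KO, so the shortfall in number 1 was seen in WT and not against number 3 in HRG1-KO. Mitosis genes, of which 16 of 31 fell, had medians of 0.03 against -0.31 and -0.25 in WT and -0.28 against -0.56 and -0.34 in HRG1-KO. PLK1, a kinase of mitotic entry, had ratios of 1.05 in number 1 and -0.67 and -0.56 in numbers 2 and 3 of WT, and 0.42 against -0.88 and -0.72 in HRG1-KO, with a difference of differences of 1.46 (adjusted p = 0.0408).

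In WT the erythroid lists had median ratios in number 1 above those of one or both other numbers, while globins in HRG1-KO had a lower ratio in number 1 than in either. The median log2 ratio of globin genes was 2.09 in number 1 against 2.63 and 0.82 in WT, and 0.47 against 0.82 and 0.89 in HRG1-KO. That of heme synthesis genes was 1.25 against 0.52 and 0.18 in WT and 0.53 against 0.69 and 0.27 in HRG1-KO. That of membrane genes was 2.08 against 0.64 and 0.21 in WT and 0.22 against 0.25 and -0.08 in HRG1-KO, and that of erythroid regulators 0.53 against 0.15 and -0.45 in WT and 0.53 against 0.14 and -0.25 in HRG1-KO. In WT number 1 thus had the highest ratio in 3 of the 4 lists. ABCB10, a mitochondrial transporter that stabilises the iron importer, had ratios of 1.70 in number 1 and -0.08 and -0.24 in numbers 2 and 3 of WT, and 0.48 against -0.57 and -0.67 in HRG1-KO, with a difference of differences of 1.47 (adjusted p = 0.0426). GYPC, glycophorin C, had ratios of 0.50 in number 1 and -1.66 and -1.07 in numbers 2 and 3 of WT, and 0.10 against -1.27 and -1.03 in HRG1-KO, with 1.58 (adjusted p = 0.0318), and the Kell partner XK gave 1.5 (adjusted p = 0.0362). These 3 erythroid genes were the called members of the 4 lists, all higher with treatment in number 1. Immediate early genes, of which 14 of 21 rose in numbers 2 and 3, had medians of 0.98 against 1.11 and 0.46 in WT and 0.92 against 0.90 and 0.76 in HRG1-KO.

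The number 1 difference depended on genotype in few genes. The test of the difference between HRG1-KO and WT called 4 genes (0.0253%), with 1281 genes at an unadjusted p under 0.05 and 118 genes by DESeq2. MYEOV, a gene amplified in some tumours, read 189.7, 0.0535, 76.7 and 0.184 CPM in number 1, against 60.2 and 78.1, 0.333 and 1.27, 69.5 and 53.2, and 9.38 and 7.57 CPM in numbers 2 and 3. Number 1 was the highest in WT and the lowest in HRG1-KO, where it held 1 untreated and 4 treated counts. The untreated count is below the limit of detection, so the MYEOV value rests on few reads in number 1 of HRG1-KO. ASIC1, an acid-sensing ion channel, read 1.68, 51.1, 4.67 and 58.8 CPM in number 1, against 6.77 and 6.09, 55.6 and 59.6, 25.9 and 26.9, and 76.02 and 63.1 CPM in numbers 2 and 3. PLXNA1, a semaphorin receptor, read 195, 93.7, 137 and 53.4 CPM in number 1, against 189 and 199, 261 and 241, 136 and 119.8, and 154 and 147 CPM in numbers 2 and 3, close to the others in WT and below them in HRG1-KO. The log2 values of HRG1-KO minus WT were 2.04, -6.15 and -1.51 for ASIC1, MYEOV and PLXNA1, each at an adjusted p of 0.0404, and 0 genes passed with the replicate number as a block.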

How the data were processed

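Gene expression was measured by RNA sequencing of total RNA in 12 K562 libraries. The authors deposited whole-number counts per gene symbol for 28278 genes. Per the submitters' processing notes, FastQC 0.12.1, STAR 2.7.11b and the build hg38 were used; the counting tool, annotation and use of strand are not given in the sources used here, so overlapping and antisense genes can share reads. All columns were matched to samples by library name, 0 were unused and 0 lines named no gene. Library totals were 19963594 to 30348538 counts, and 3 counts, taken as the limit of detection, correspond to 0.0989 to 0.15 CPM.

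Counts were analysed with edgeR 4.0.16 in R 4.3.3. Genes were kept by filterByExpr (minimum count 10, 15805 genes), scaled by TMM and tested with the quasi-likelihood F-test on all 12 libraries, with Benjamini-Hochberg adjustment over all tested genes and a threshold of 0.05. The main model held the 4 group means and a term for number 1. Other models added its interaction with butyrate or genotype, fitted it within each group, or compared numbers pairwise. Butyrate log2 ratios by number are differences of log2 CPM with a prior count of 2. Alternatives used other scalings and filters, DESeq2 1.42.0, a replicate block and left-out libraries. The test scripts were tested on simulated data and found 100% of 4-fold and 62% of 2-fold changes in the main comparison.

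Samples with the same number deviated together, least clearly in number 2. The correlation of deviations from group means between untreated and treated libraries was 0.409, 0.195 and 0.345 for numbers 1, 2 and 3 in WT and 0.443, 0.147 and 0.468 in HRG1-KO. Over all pairs of groups it was 0.261 to 0.595 for number 1, -0.00298 to 0.315 for number 2 and 0.156 to 0.489 for number 3. Between number 2 of a group and number 3 of another it was -0.089 to 0.343, so these values do not set number 2 apart. The pairing therefore comes from these data and the shared numbers, not from a stated design.

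The members and lists (35 lists, 34 of them with tested genes, 794 genes in the table, 712 tested) were chosen with earlier results of these data known. Genes named outside the lists were the 12 largest changes in each direction among those called, beyond the others' range in all 4 groups and counted 50 times or more in each library on the higher side, and for interactions the 6 largest in each direction with at least 50 counts in 3 or more libraries. Promoters are from RefSeq (GRCh38.p14). A few genes that the rules or lists include are not reported here.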

Additional observations from a re-analysis of the deposited data

Results flagged for a closer look

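In 15 named genes the difference between number 1 and the others itself differed between groups by a test of that difference (edgeR's quasi-likelihood interaction, Benjamini-Hochberg adjusted). Between treated and untreated cells the log2 difference of differences was 3.81 in MFSD2B, 2.90 in CLCA1, 2.79 in CLEC4M, 2.55 in C10orf71, 2.47 in TSPAN32 and 2.30 in SLC30A10. It was -5.17 in ZDHHC11B, -5.05 in UNC13A, -4.98 in RGMA, -4.57 in NXPH3, -4.51 in ROPN1L and -4.44 in SLC17A7. Between HRG1-KO and WT it was 2.04 in ASIC1, -6.15 in MYEOV and -1.51 in PLXNA1. The adjusted p ran from 0.00168 in MFSD2B to 0.0498 in RGMA. With single libraries left out, MFSD2B and ZDHHC11B passed in 11 of 12 fits and UNC13A in 10 of 12, while the other 12 passed in 0 to 5 of 12 fits, PLXNA1 in 0, ASIC1 in 1 and MYEOV in 5.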

How the results depend on the processing

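The alternatives were the scaling, the filter on low counts, DESeq2, a replicate block and left-out libraries; leaving out both treated libraries numbered 1 was chosen after seeing the data and gave 198 genes for number 1 against numbers 2 and 3, the largest drop for that count. Over single libraries left out it ran from 1601 to 4041, and without number 2 or number 3 it was 1962 and 581. The dependence on butyrate gave 1116 genes with no filter, 263 with at least 10 counts in every library, 932 by DESeq2 and 253 with the replicate block, and 0 to 338 with 1 library left out. The dependence on genotype gave 332, 2, 118 and 0 in the same order, and 0 to 4 with 1 library left out. Within untreated WT there were 2 genes with library totals alone, 603 with no filter, 191 by DESeq2 and 0 to 6 with 1 library left out. Within untreated HRG1-KO there were 701 with no filter, 7 with at least 10 counts, 328 by DESeq2 and 0 to 196 with 1 library left out. Treated WT ranged from 644 to 3298 and treated HRG1-KO from 324 to 1222 with 1 library left out, and the latter gave 2158 with no filter and 1641 by DESeq2. Number 1 against number 2 gave 3064 by DESeq2 and 369 to 2088 with 1 library left out, and number 1 against number 3 gave 1455 to 3594. Number 2 against number 3 gave 14 with no filter, 48 by DESeq2 and 0 to 3. Butyrate gave 4196 with the replicate block, 4735 without the libraries numbered 1 and 1198 to 3795 with 1 library left out. Of the named genes, CLCA1 in the dependence on butyrate alone reversed, to -1.14, without number 1 of treated HRG1-KO, and ranged from there to 3.28 with 1 library left out. The cause of these changes was not tested. Genes at a few CPM are limited by depth.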
